A study of Mus musculus with 13 samples.

Results

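Cytochrome P450 enzymes, written Cyp in the mouse, are the haem-containing monooxygenases that metabolise drugs and food chemicals, fatty acids, bile acids, steroid hormones and vitamins. All probes of the array whose gene symbol starts with Cyp and a digit were taken, except those of Cyp51, which belongs to cholesterol synthesis. The rule used names alone and no measured value. It gave 99 probes for 75 genes, out of 25697 probes for 17896 genes on the array. Of these, 35 probes for 26 genes were detected, meaning that the scanner's detection p-value was under 0.05 on 5 or more of the 13 arrays, and these were tested. The other 64 probes fell below that rule.

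RNA from the proximal part of the small intestine was measured in male C57BL/6J mice, 1 Illumina MouseRef-8 v2.0 BeadChip array per mouse. The 8 control mice ate regular chow and the 5 treated mice ate chow with 0.005% ezetimibe, a drug that inhibits the cholesterol transporter Npc1l1 of the gut. The mice carry no other label of genotype or treatment, and the sources used here give neither their age nor the length of feeding. Control and ezetimibe arrays lay on 2 slides, slide 1 with 4 control and 2 ezetimibe arrays and slide 2 with 4 and 3, so slide was a term of every main comparison. On slide 1 every control array came before both ezetimibe arrays in chip position, so position and treatment cannot be told apart there. On slide 2 the positions of the groups were mixed. Whole tissue holds many cell types, so fewer cells of a type and less RNA per cell cannot be told apart.

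In the gut, P450 enzymes sit mostly in the endoplasmic reticulum of enterocytes, the absorptive cells, where they oxidise part of what is eaten before it reaches the liver. They take electrons from the reductase Por. Many genes of families 2 and 3 are switched on by the xenobiotic receptors PXR (Nr1i2) and CAR (Nr1i3), those of family 1 by the aryl hydrocarbon receptor, and those of the Cyp4a subfamily by PPAR-alpha. The nuclear receptor HNF4-alpha maintains many of them in liver and gut.

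Each array detected between 11085 and 12380 probes. The number of arrays limits the precision, and all levels below are normalised log2 intensities with the slide difference taken out. Of the 7 enterocyte marker genes on the array, 5 were detected on all 13 arrays (Vil1, Sis, Anpep, Apoa4 and Slc5a1). The probes for Fabp1 and Fabp2, fatty acid binding proteins that enterocytes make in large amounts, were detected on 0 arrays, so a probe without a detected signal does not show that its transcript was missing. Of 13 hepatocyte markers 3 were tested, and Alb, the gene of albumin, was detected on 0 arrays. All 15 exocrine pancreas markers on the array were tested, and their mean level ran from 6.13 in control 7 to 13.14 in ezetimibe 4. Their part in the results was not tested beyond a fit with the mean of the brightest probe of each as a covariate, given with the main counts below. Ezetimibe 3 and control 1 stood low in many P450 probes and ezetimibe 4 stood high, and some results are also given without 1 of these arrays.

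No detected P450 probe passed the threshold for a difference between ezetimibe and control mice. With limma, 0 of 35 probes reached an adjusted p under 0.10, the lowest being 0.732, against 0.252% of all 11887 tested probes. At an unadjusted p under 0.05 there were 4 of 35 probes, or 11.4%, against 6.18% of all tested probes. All 4 were higher with ezetimibe, where 3.68% of all tested probes were higher at that level. They belong to Cyp4a31, Cyp2c55, Cyp2c65 and Cyp4f16. The 35 differences ran from a log2 fold change of -0.39 to 0.52, with 17 above 0 and 18 below, and their median was -0.0064 against -0.0010 for all tested probes. With the exocrine pancreas mean as a covariate, the counts were again 0 and 4. For scale, the sterol demethylase Cyp51, which bears the family's name and is no member here, rose by a log2 fold change of 1.86 ± 0.12 (SE; limma, adjusted p = 6.70e-07).

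The tested probes were measured with a median standard error of 0.176, against 0.133 over all tested probes. The 95% interval of the log2 fold change lay within -1 and 1 for all 35, which 98.1% of all tested probes also met. The lowest bound was -0.88, at a probe of Cyp4f16, and the highest was 0.94, at Cyp4a31. A 1.5-fold change in either direction lay outside the interval for 24 of the 35, against 86.1% of all tested probes. In 0 of 35 did every ezetimibe array lie beyond every control array of its own slide, which 0.791% of all tested probes did.

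Of the genes that are alone in their subfamily on this array, Cyp27a1, Cyp2s1, Cyp4b1, Cyp4v3 and Cyp7b1 were tested, with all 7 of their probes. In Cyp4f, 5 of 6 genes were tested, in Cyp2d 5 of 8, in Cyp3a 3 of 5, in Cyp2b 2 of 5, in Cyp2c 3 of 11, in Cyp4a 1 of 4, in Cyp2j 1 of 5 and in Cyp11b 1 of 2. In every other subfamily 0 genes were tested, and most of these subfamilies hold 1 gene on this array. Of the 35 tested probes, 30 were detected on all 13 arrays, and the others were Cyp2j9 on 12, Cyp2d40 and Cyp7b1 on 11, Cyp2d9 on 10 and Cyp11b2 on 5. The tested share was 35.4% of member probes and 46.3% of all probes.

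**Figure D1:**
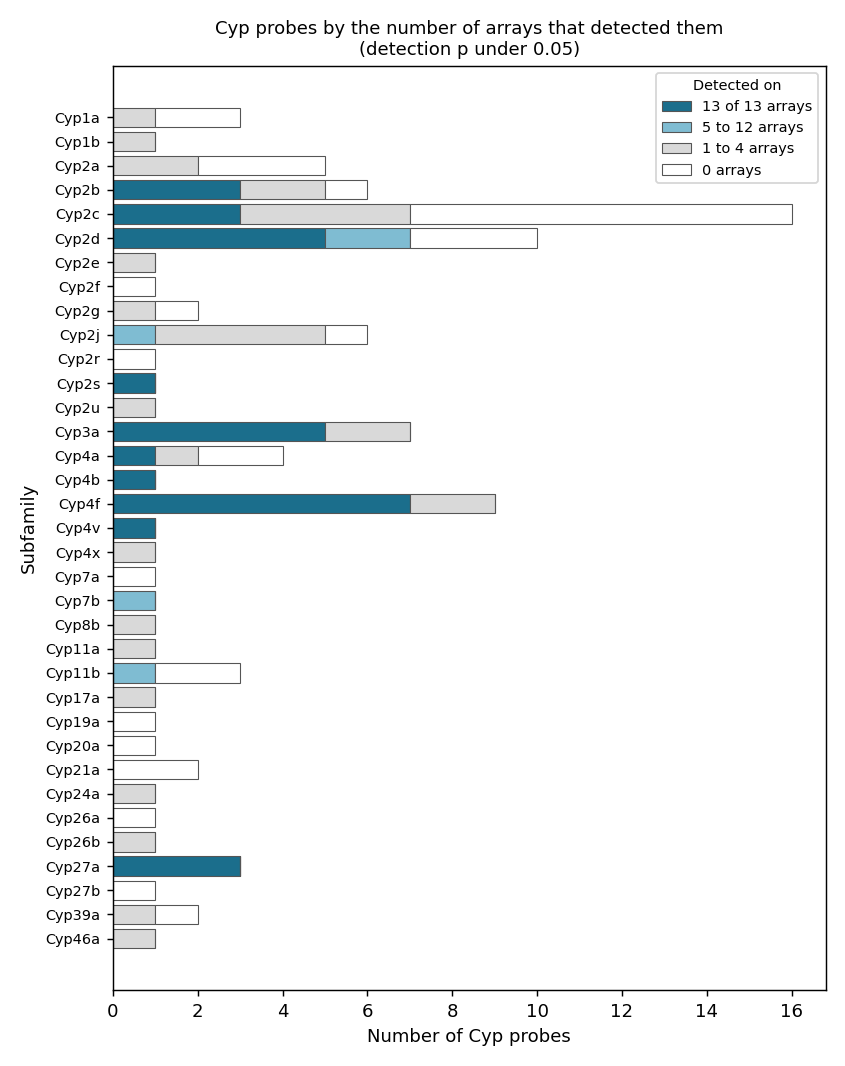
Number of Cyp probes (horizontal axis) in each subfamily (vertical axis), split by how many of the 13 arrays detected the probe at a detection p under 0.05. The Cyp4f, Cyp3a and Cyp2d subfamilies hold most probes found on all 13 arrays, while 9 of the 16 Cyp2c probes were found on 0.

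Among the 64 probes below the rule, 34 were detected on 0 arrays, 19 on 1 and 11 on 2 to 4. Of these probes 53.1% were on 0 arrays, against 58.9% of all untested probes. They leave 49 genes with no tested probe, and 3 genes, Cyp11b2, Cyp2c67 and Cyp4f18, had a probe on either side. Just inside the rule stood Cyp11b2 with 5 arrays, of which 2 were control and 3 were ezetimibe arrays. Just outside stood Cyp4f39 with 4, of which 1 was a control and 3 were ezetimibe arrays. Cyp1b1, Cyp2j11 and Cyp4x1 followed with 3 arrays each.

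The genes without a tested probe include several of known function. Cyp1a1, the classic target of the aryl hydrocarbon receptor, was detected on 0 arrays, as were Cyp2r1 and Cyp27b1, which activate vitamin D. Cyp24a1, which inactivates vitamin D, was detected on 2 arrays. Cyp26a1 and Cyp26b1, which break down retinoic acid, were detected on 0 and 1. Cyp7a1, the rate-limiting enzyme of classic bile acid synthesis in liver, was detected on 0 arrays and Cyp8b1, the sterol 12-alpha-hydroxylase that sets the cholic acid share, on 2. Of the steroid hormone enzymes, Cyp11a1, the side-chain cleavage enzyme, was detected on 2 arrays and Cyp19a1, aromatase, on 0. Cyp2j6 was detected on 1 array, Cyp2e1, which oxidises ethanol, on 1, and the orphan Cyp20a1 on 0. The probes of Cyp2c29 were detected on 0 and 1 arrays, and Cyp2c66 has no probe of that name on the array.

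The foreign-compound group, families 1 to 3 without Cyp2j, Cyp2r and Cyp2u, had 38 genes, of which 14 were tested with 19 probes. With limma 0 of these rose or fell, 9 estimates lay above 0 and 10 below, and the median log2 fold change was -0.01. The 250 bases before the transcript start are shown for 3 of them, Cyp3a11 as the main Cyp3a drug-metabolising gene and Cyp2c55 and Cyp2c65 as the pair of Cyp2c genes among the 4 probes at an unadjusted p under 0.05. They are RefSeq sequences of build GRCm38.p6, written 5′ to 3′ on the gene's strand. They lie at chr5:145879855-145880104 on the minus strand for Cyp3a11, chr19:39006769-39007018 on the plus strand for Cyp2c55 and chr19:39060756-39061005 on the plus strand for Cyp2c65. Capitals mark CAAAGT, the core of the HNF4 element, and AGGTCA, the hexamer that many nuclear receptors bind, found on either strand.
Cyp3a11: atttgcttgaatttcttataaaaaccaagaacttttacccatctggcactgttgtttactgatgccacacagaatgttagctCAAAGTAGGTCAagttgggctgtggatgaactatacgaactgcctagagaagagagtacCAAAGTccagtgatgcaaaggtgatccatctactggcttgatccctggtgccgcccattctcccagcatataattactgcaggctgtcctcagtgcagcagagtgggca
Cyp2c55: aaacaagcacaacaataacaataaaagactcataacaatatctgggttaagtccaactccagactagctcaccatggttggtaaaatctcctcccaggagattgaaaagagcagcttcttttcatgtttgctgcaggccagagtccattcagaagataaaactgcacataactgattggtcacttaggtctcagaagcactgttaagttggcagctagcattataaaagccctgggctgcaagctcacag
Cyp2c65: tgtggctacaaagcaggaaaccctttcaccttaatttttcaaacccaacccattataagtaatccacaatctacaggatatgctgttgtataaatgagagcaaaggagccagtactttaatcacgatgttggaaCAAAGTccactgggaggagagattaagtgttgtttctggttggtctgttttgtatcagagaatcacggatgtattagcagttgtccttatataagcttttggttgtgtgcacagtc

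In Cyp3a11 the HNF4 core starts 168 and 109 bases before the transcript start, and the hexamer begins at 162, directly after the first core with no shared base. In Cyp2c65 the core starts at 116, and the window of Cyp2c55 holds neither. Promoter windows were found for 22 of the 26 tested genes and 34 of the 49 genes without a tested probe. CAAAGT stood in 12.6% of all 32851 windows, in 8 of 26 windows of tested genes (30.8%) and in 19 of 39 windows of genes without a tested probe (48.7%). AGGTCA stood in 14% of all windows, in 4 of the 26 and in 11 of the 39. TCACNCCAC, a form of the sterol regulatory element, stood in 1.05% of all windows, in 0 of the P450 windows of either kind and in 0 of those of Cyp51. Both strands were searched for each motif. These matches describe letters in the windows and no binding.

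Cyp2c55, which hydroxylates arachidonic acid and is found in the gut, had ezetimibe levels of 11.06, 11.36, 10.71, 11.55 and 11.31. The 8 control levels ran from 10.02 to 11.24 with a median of 10.87. The groups overlapped, with 4 of 5 ezetimibe arrays above the control mean and control 1 was the lowest of the 13. The means were 10.80 ± 0.36 (SD, n = 8) and 11.20 ± 0.32 (SD, n = 5), a log2 fold change of 0.40 ± 0.18 (SE; 95% interval 0.03 to 0.78; limma, adjusted p = 0.772). The exact two-sided permutation test over all relabellings of arrays within slides gave p = 0.09, where 0.0019 is the smallest it can give. The log2 fold change was 0.30 without control 1, 0.52 without ezetimibe 3, 0.31 without ezetimibe 4 and 0.16 with chip position as a covariate.

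Cyp2c65, its neighbour on chromosome 19, had ezetimibe levels of 12.47, 12.28, 12.06, 12.70 and 12.49. The control levels ran from 11.86 to 12.39 with a median of 11.998. Ezetimibe arrays 1, 4 and 5 lay above every control, and ezetimibe 3 lay below the control mean. The log2 fold change was 0.31 ± 0.12 (SE; 95% interval 0.06 to 0.56), or 1.24-fold, and it did not pass (limma, adjusted p = 0.732; exact permutation p = 0.036, not adjusted). The Cyp2c65 value was 0.29 without control 1, 0.40 without ezetimibe 3, 0.24 without ezetimibe 4 and 0.24 with chip position as a covariate. The third tested Cyp2c gene, Cyp2c67, had a log2 fold change of 0.18 ± 0.18 (SE).

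Of the Cyp3a genes, Cyp3a11, the main inducible P450 of mouse liver and gut and a PXR target, had ezetimibe levels of 12.73, 12.36, 11.48, 13.01 and 12.74. The control levels ran from 11.94 to 12.95 with a median of 12.61. Ezetimibe 3 was the lowest of the 13 arrays and ezetimibe 4 the highest, so the ezetimibe group spanned the whole control range. The log2 fold change was -0.14 ± 0.22 (SE; limma, adjusted p = 0.951), and it was 0.10 without ezetimibe 3 and -0.24 without control 1. Cyp3a13, a Cyp3a gene of the mouse intestine, had 3 probes at -0.09 ± 0.11, -0.21 ± 0.22 and -0.10 ± 0.11 (SE). Without ezetimibe 3 these were -0.014, 0.0087 and 0.014, so the sign of the last 2 rested on that array. Leaving out control 1 instead gave -0.14, -0.31 and -0.14. Cyp3a25 differed by 0.05 ± 0.19 (SE), by 0.21 without ezetimibe 3 and by -0.05 without control 1. Cyp3a16 and Cyp3a44, which were detected on 1 array each, were not tested.

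The CAR target Cyp2b10 had a probe at -0.09 ± 0.14 and another at 0.11 ± 0.21 (SE), and Cyp2b23 stood at -0.18 ± 0.25 (SE). The groups overlapped in every probe of both genes. Without ezetimibe 3 Cyp2b23 was at 0.08, and the Cyp2b10 probes were at 0.0046 and 0.24. Leaving out control 1 gave -0.26 for Cyp2b23, and -0.12 and 0.05 for the Cyp2b10 probes. The 3 probes of Cyp2d26 gave -0.18, -0.14 and -0.01. Without ezetimibe 3 they gave 0.01, 0.09 and 0.11, and without control 1 they gave -0.24, -0.19 and -0.05. Among the fits that left out 1 array, Cyp2b23 and the Cyp2d26 probes at -0.18 and -0.14 turned positive only without ezetimibe 3. The Cyp2d26 probe at -0.01 also turned positive without several other arrays, for example at 0.03 without control 2. The other 4 Cyp2d probes ran from -0.03 at Cyp2d10 to 0.15 at Cyp2d40, with Cyp2d22, the mouse counterpart of human CYP2D6, at 0.07. Cyp2s1, a P450 of epithelia outside the liver, had one of the narrower intervals, from -0.12 to 0.26 around a log2 fold change of 0.07.

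**Figure D2:**
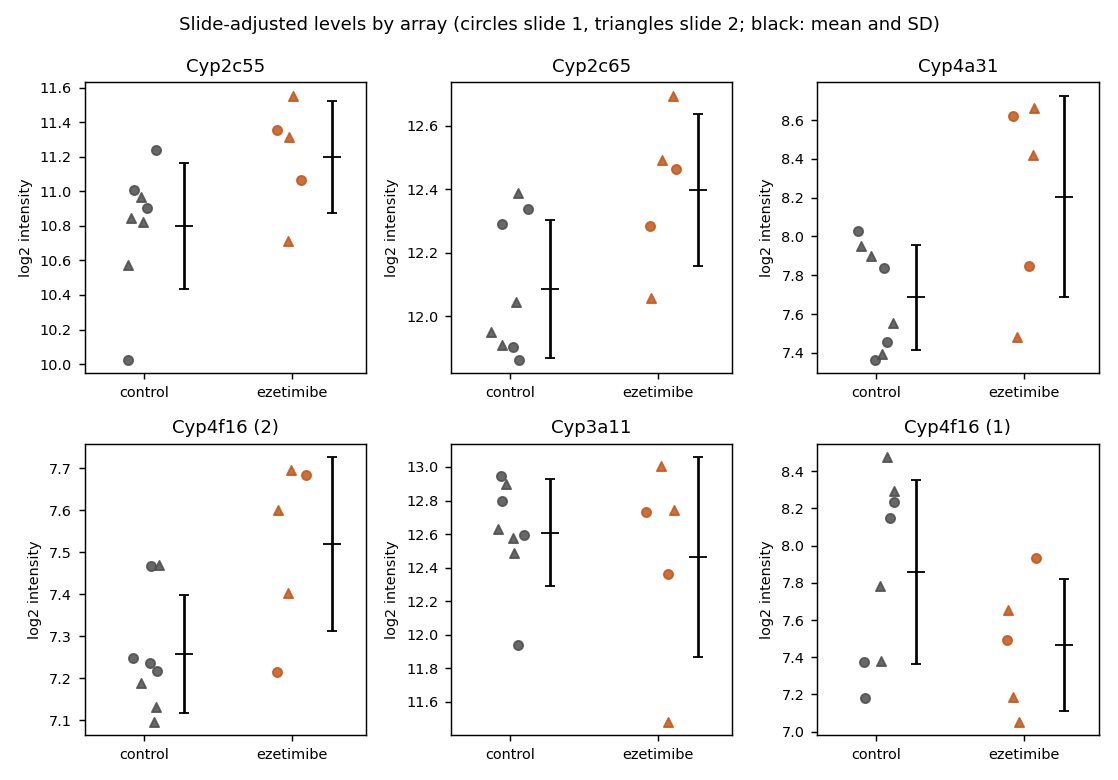
Slide-adjusted log2 intensity (vertical axis) of each array by group for the 4 probes at an unadjusted p under 0.05, for Cyp3a11 and for the lowest-estimate probe of Cyp4f16; circles are slide 1, triangles slide 2, and the black marks give mean and SD of 8 control or 5 ezetimibe arrays. In each panel the groups overlap, and ezetimibe 3 is the lowest of the ezetimibe triangles.

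The fatty acid and eicosanoid group, Cyp4, Cyp2j and Cyp2u1, had 9 tested genes of 19 with 11 probes, of which 0 passed with limma, 6 lay above 0 and 5 below, and the median was 0.04. Cyp4a31, of the PPAR-alpha driven Cyp4a subfamily of fatty acid omega-hydroxylases, had ezetimibe levels of 8.62, 7.85, 7.48, 8.66 and 8.42. The control levels ran from 7.36 to 8.03 with a median of 7.70. Ezetimibe arrays 1, 4 and 5 lay above all 8 controls, and the other ezetimibe arrays lay within their range. The means were 7.69 ± 0.27 (SD, n = 8) and 8.21 ± 0.52 (SD, n = 5), a log2 fold change of 0.52 ± 0.20 (SE; 95% interval 0.10 to 0.94), or 1.43-fold. This was the largest estimate of the family and did not pass (limma, adjusted p = 0.732; exact permutation p = 0.051). Within slide 1 alone it was 0.56, within slide 2 alone 0.49, and with chip position as a covariate 0.41. In the authors' processed values, with slide as a term, it was 0.25 (limma, adjusted p = 0.652). Whether those values carry an offset is not known, so the sizes of the 2 estimates may not share a scale. The other Cyp4a genes, Cyp4a12a, Cyp4a12b and Cyp4a14, were detected on 2, 0 and 0 arrays, and Ppara itself on 4.

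Cyp4f16, of the leukotriene and fatty acid hydroxylase subfamily Cyp4f, had 3 tested probes that gave different estimates. In the probe ILMN_2729452 the ezetimibe levels were 7.21, 7.68, 7.40, 7.70 and 7.60. Its control levels ran from 7.10 to 7.47 with a median of 7.23. Ezetimibe arrays 2, 4 and 5 lay above every control, and the log2 fold change was 0.26 ± 0.11 (SE; limma, adjusted p = 0.750; exact permutation p = 0.036, not adjusted). In the authors' processed values, with slide as a term, it was 0.09 (limma, adjusted p = 0.782), again on a scale that may differ. With chip position as a covariate it was 0.15. The probe ILMN_2719687 gave -0.39 ± 0.23 (SE; 95% interval -0.88 to 0.09), from -0.02 within slide 1 and -0.69 within slide 2. With chip position as a covariate this probe gave -0.72 (limma, adjusted p = 0.412). The probe ILMN_2792351 gave -0.01 ± 0.09 (SE). The sources used here do not say which transcripts the probes bind, and the difference between the probes was not tested.

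Cyp4f14, which hydroxylates leukotriene B4 in the mouse, had a log2 fold change of 0.04 ± 0.08 (SE; 95% interval -0.13 to 0.21). Cyp4f13, Cyp4f15 and Cyp4f18 stood at 0.08, -0.08 and 0.08. Cyp4v3, the mouse counterpart of the human fatty acid hydroxylase CYP4V2, stood at -0.24 ± 0.14 (SE; limma, adjusted p = 0.841). Its ezetimibe levels of 11.49, 11.66, 11.39, 11.84 and 11.77 lay all below the control mean of 11.87, and within the control range of 11.48 to 12.37 but for ezetimibe 3. It was -0.32 within slide 1 and -0.17 within slide 2. Cyp4b1, which activates the lung toxin 4-ipomeanol, stood at 0.16 ± 0.19 (SE). It stood at 0.38 without ezetimibe 3, at 0.015 without ezetimibe 4 and at 0.17 without control 1. Cyp2j9, an arachidonic acid P450, stood at -0.20 ± 0.23 (SE).

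**Figure D3:**
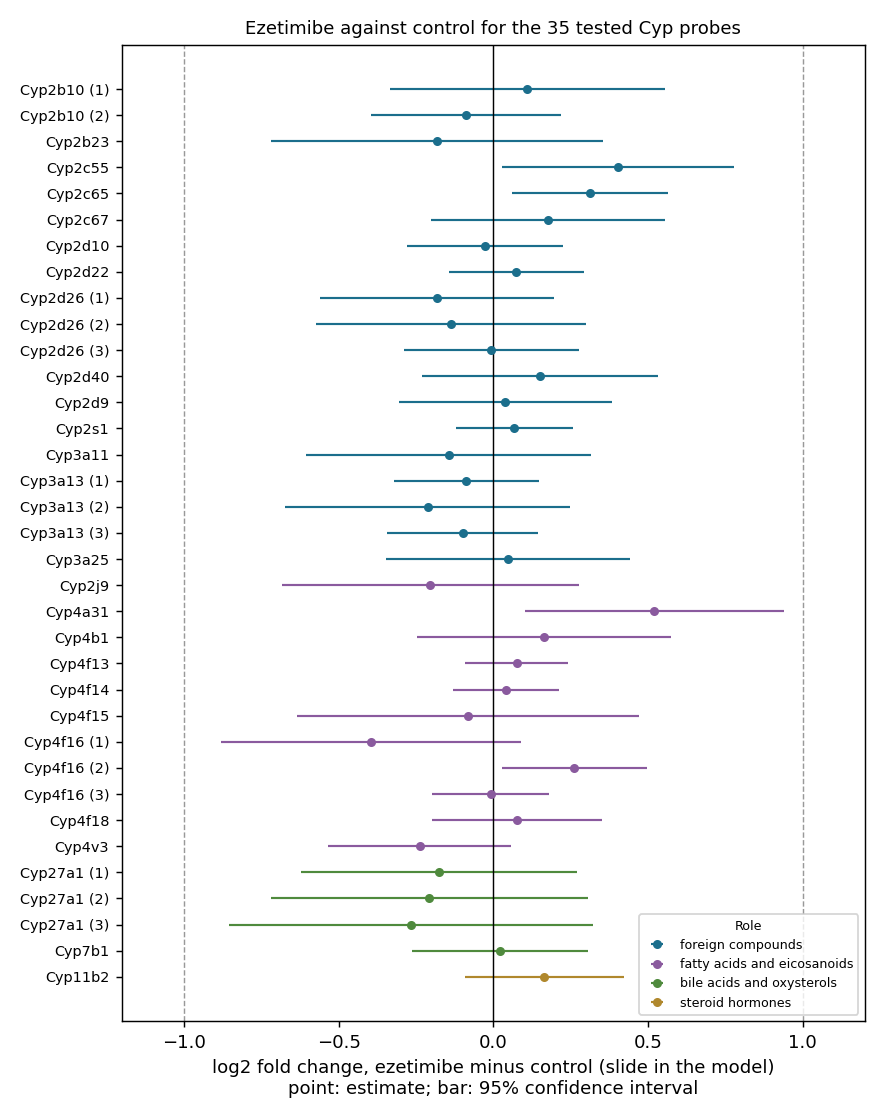
Log2 fold change of ezetimibe against control (horizontal axis, slide in the model) for each of the 35 tested Cyp probes, coloured by role; points are estimates, bars 95% confidence intervals and dashed lines mark -1 and 1, with numbers in brackets for the probes of 1 gene. Only the intervals of Cyp2c55, Cyp2c65, Cyp4a31 and 1 Cyp4f16 probe leave out 0.

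The bile acid and oxysterol group had 6 genes, of which Cyp27a1 and Cyp7b1 were tested with 4 probes. With limma 0 of the 4 rose or fell, 1 lay above 0 and 3 below, and their median was -0.19. Cyp27a1, the mitochondrial sterol 27-hydroxylase that starts the alternative bile acid pathway, gave -0.18 ± 0.21, -0.21 ± 0.24 and -0.26 ± 0.28 (SE) in its 3 probes, the lowest adjusted p being 0.922. Within slide 1 alone they were -0.45, -0.52 and -0.61, and within slide 2 alone 0.04, 0.04 and 0.0041, so the negative values came from slide 1. Without control 2 they were -0.06, -0.08 and -0.11, and without control 5 they were -0.30, -0.34 and -0.44. Its control arrays spread widely, with SDs of 0.486, 0.559 and 0.671 (n = 8), each larger than in at least 96.7% of tested probes. In the probe ILMN_2960114 the controls ran from 7.21 in control 5 to 9.31 in control 2, while the ezetimibe arrays ran from 7.61 to 8.25, inside that range. Cyp7b1, the oxysterol 7-alpha-hydroxylase, was close to background and stood at 0.02 ± 0.13 (SE). Of the steroid hormone group 1 of 6 genes was tested, aldosterone synthase Cyp11b2, at 0.16 ± 0.12 (SE). This probe was close to background, with a detected signal on 2 control and 3 ezetimibe arrays, so it met the rule with help from the higher group. The other Cyp11b2 probe was detected on 0 arrays, and of 4 adrenal or steroidogenic marker genes on the array 0 were tested. The vitamin D group with 3 genes, the retinoic acid group with 2 and the orphan Cyp20a1 had 0 tested genes.

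Single arrays stood apart across the family. Ezetimibe 3 was the lowest of the 13 arrays in 16 of the 35 member probes (45.7%, from 11 of 26 genes), against 8.29% of all tested probes. Ezetimibe 4 was the highest in 12 (34.3%), against 8.69% of all. Control 1 was the lowest in 6 and control 2 the highest in 8, against 6.61% and 7.60%. Several probes share a gene and many genes share regulators, so these counts are descriptions with no test.

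Among the 19 foreign-compound probes, ezetimibe 3 was the lowest array in 10. Its median deviation from the control mean was -0.45 there and -0.32 over all member probes, against 0.02 over all tested probes. The matching medians of control 1 were -0.39 and -0.30, so the low pattern occurred in both groups. The mean enterocyte marker level was 12.93 in ezetimibe 3 and 12.94 in control 1, within the span of 12.79 to 13.18 over the 13 arrays. The mean of the smooth muscle markers was 10.18 in ezetimibe 3, the highest of the 13 arrays, and 9.99 in control 1. The mean of the tested hepatocyte-list probes was 7.55 in ezetimibe 3, the lowest of the 13, and 7.69 in control 1. Control 1 and ezetimibe 3 each lay at the earliest chip position of their group on their slide. The part of muscle, other wall tissue or chip position in these low values was not tested. Without ezetimibe 3 the median over the member probes was 0.07, the log2 fold change of Cyp4a31 was 0.70 and 5 probes had an unadjusted p under 0.05, with 0 past the threshold in limma and a lowest adjusted p of 0.221. Without control 1 the same values were -0.05, 0.48 and 6 probes, with 0 past the threshold in limma and a lowest adjusted p of 0.714. Without ezetimibe 4 they were -0.03, 0.41 and 0 probes, with 0 past the threshold in limma and a lowest adjusted p of 0.933. The share of all tested probes at an unadjusted p under 0.05 was not counted for these fits.

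**Figure D4:**
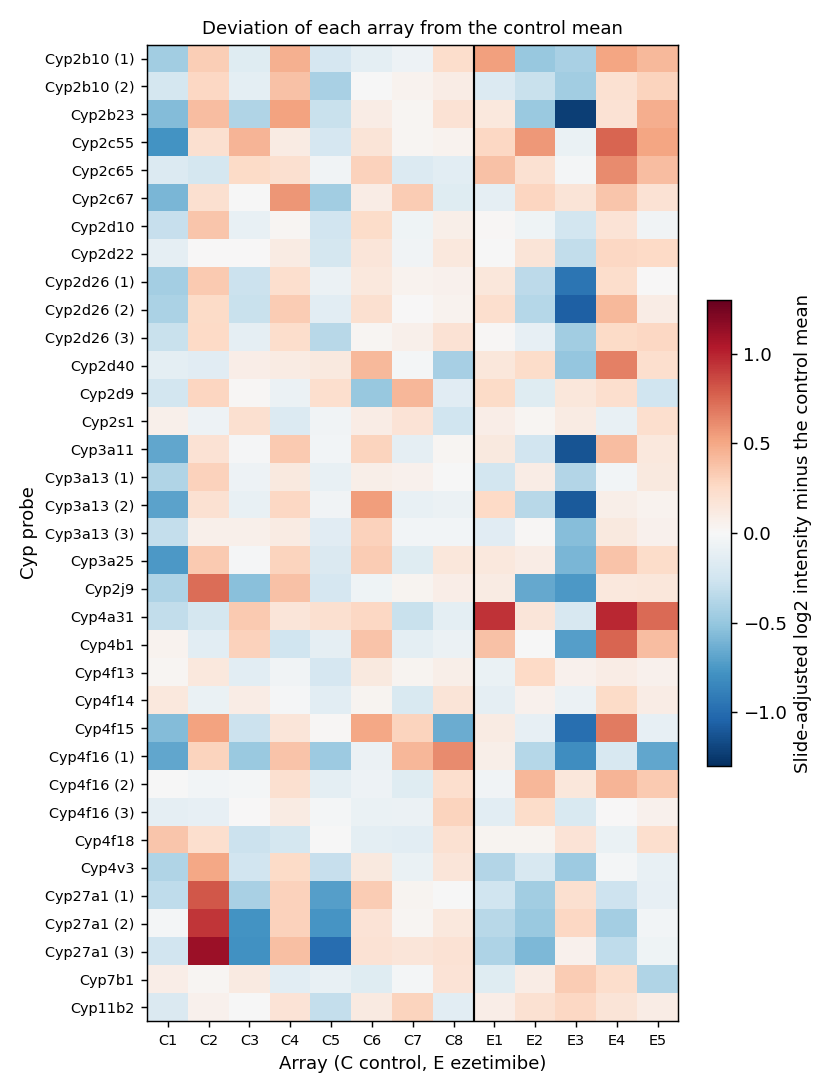
Slide-adjusted log2 intensity of each array (columns, C control and E ezetimibe) minus the control mean for the 35 tested Cyp probes (rows, ordered by role), with red above and blue below. Column E3 is blue in most rows down to Cyp4v3, column C1 is blue in much the same rows, and the Cyp27a1 rows are among those that vary most over the control columns.

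Of the proteins that P450 enzymes work with, 13 of the 15 genes on the array were tested, and with limma 0 rose or fell. Their median log2 fold change was 0.05, within a range of -0.34 to 0.40. The smallest p belonged to Alas1, the first enzyme of haem synthesis, at 0.40 ± 0.11 (SE; adjusted p = 0.341 in limma). The reductase Por stood at 0.27 ± 0.11 (SE; adjusted p = 0.745 in limma) and the microsomal epoxide hydrolase Ephx1 at 0.39 ± 0.18 (SE; adjusted p = 0.784 in limma). Cyb5b, an outer mitochondrial membrane cytochrome b5, stood at 0.16 ± 0.08 (SE).

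Of the regulators of P450 genes, 13 of 21 on the array were tested and with limma 0 rose or fell, with a median of 0.06. The smallest p belonged to Hnf4a at 0.18 ± 0.09 (SE; adjusted p = 0.828 in limma). The xenobiotic receptor gene Nr1i2 stood at 0.17 ± 0.10, Pparg at 0.20 ± 0.13 and the bile acid receptor gene Nr1h4 at 0.11 ± 0.08 (SE). The aryl hydrocarbon receptor gene Ahr was detected on 1 array and the small heterodimer partner gene Nr0b2 on 0, so neither was tested.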

How the data were processed

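Total RNA of 13 intestines was amplified, labelled with biotin and hybridised to 1-colour BeadChips, per the labels. The deposited non-normalized table holds, per the file headers, for every probe and array a mean signal, which is a linear intensity, with its detection p-value. The authors' deposited processed intensities, also linear, come from quantile normalization and Combat per the series' design text, which also names a 1.1-fold prefilter and a 10% false discovery rate. The sources used here do not say whether they carry an offset.

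From the deposited signal intensity, neqc in limma 3.58.1 (R 4.3.3) corrected background by the detection p-values with an offset of 16, normalized by quantiles and took log2. Probes with detection p under 0.05 on 5 or more of 13 arrays (11887) were fitted with slide and group as terms, with eBayes on an intensity trend, and p-values were adjusted by Benjamini-Hochberg over all of them. Adjusted p under 0.10 was called. Probes of a gene were tested apart. For list genes the brightest tested probe stands for the gene, also in the exocrine pancreas covariate. The marker means given for single arrays average every tested probe of a list. Permutations kept arrays within slides. The fit was tested on simulated data. Symbols were updated through RefSeq, and all 75 member symbols were current. Probe sequences were not used here, so signal shared between similar P450 genes cannot be told apart.

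Members, lists and roles were chosen with earlier results of these data known. Genes are named if at an unadjusted p under 0.05, if among the 4 largest absolute differences of their role, if their probes differed by over 0.3, or from a list of well-known P450 genes. Of the partners and of the regulators, the 4 with the smallest p are named; other genes with a detection count or a value were chosen after values were seen. Alternatives covered background correction, scaling, the deposited processed values, filters, slide, chip position, eBayes settings, array weights, a replicate block and leaving out each array. The labels do not say whether equal replicate numbers pair mice, and the few correlations given below cannot decide it.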

Additional observations from a re-analysis of the deposited data

Results flagged for a closer look

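In 52 groups checked, the arrays of 1 group for each of the 26 named and tested probes, a single array stood apart by Dixon's criterion in 2, and chance alone gives about 5% of groups. Cyp3a11 in control 1 was the lowest of the 8 control arrays at 11.94 on the slide-adjusted log2 scale, where the nearest control stood at 12.49. Cyp3a25 in ezetimibe 3 was the lowest of the 5 ezetimibe arrays at 10.50, where the nearest stood at 11.19.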

How the results depend on the processing

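No P450 probe passed in limma under any of the 32 other settings run, in which the lowest member adjusted p was 0.221, reached without ezetimibe 3. The count at an unadjusted p under 0.05, 4 in the report, was 8 of 99 with no filter, 0 within slide 1 alone and 1 within slide 2 alone. Leaving out 1 array at a time gave from 0, without ezetimibe 4, to 6, without control 1, with 2 without control 5, ezetimibe 2 or ezetimibe 5. The share of all tested probes at that level was counted for the main fit only. These counts therefore cannot be told apart from changes over the whole array. The count of detected probes, 35, was 65 when 1 array sufficed (65.7%, against 68.4% of all probes). It was 30 when all 13 were required (30.3%, against 34.7% of all probes). The member median ran from -0.16 with chip position as a covariate to 0.11 with the replicate block. Of the 26 named and tested probes, 9 kept 1 sign in all settings and 17 took the other sign in some, among them the probe of Cyp3a11 and all 3 probes each of Cyp3a13, Cyp2d26 and Cyp27a1. The cause of these moves was not tested.

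With the replicate number as a block, 0 members passed and 3 had an unadjusted p under 0.05. Same-numbered arrays correlated at 0.116, -0.131, 0.0474, 0.365 and -0.422 after slide and group differences were removed. Of the 5 ezetimibe arrays, 1 correlated best with its own number. Over all probes, 30 were called, against 17 without a slide term, 6 within slide 1, 10 within slide 2, and 81 of the 4057 that pass the 1.1-fold prefilter. That prefilter picks probes by the same fold change that is then tested, so the 81 cannot be compared with the 30. Each array gives 1 value per probe and group sizes of 8 and 5 set the precision. Probes near background, such as Cyp7b1, Cyp2d9, Cyp2d40, Cyp2j9 and Cyp11b2, have their differences shrunk by the offset of 16.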
